A study of Mus musculus with 6 samples.

Results

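Kcnq1ot1 and Airn are long noncoding RNAs that are transcribed antisense to a protein-coding gene, and the methylation of DNA at their starts is among the best known imprints of the mouse. The account below covers 5 genes, taken by name: the antisense RNAs Kcnq1ot1 and Airn, Kcnq1 and Igf2r, in whose introns these RNAs start, and Cdkn1c, the neighbour of Kcnq1. All 5 were among the 26234 of 34568 annotated protein-coding and long noncoding genes whose start region (the transcription start with 1000 bp either side) had at least 40 observations in every library. An observation is 1 read at 1 CpG, and the methylation level of a region is the percent of its observations that were methylated.

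Whole-genome bisulfite sequencing gave the methylation of CpG sites in 6 libraries of wild-type mouse stem cells, labelled as strain 129S2/SvPasCrl. Advanced pluripotent stem cells (ASCs; 2 libraries) were obtained, according to the methods of the study, by moving blastocyst-derived AFSCs into a medium called ABCL, which holds activin A, BMP4, CHIR99021 and leukemia inhibitory factor. Embryonic stem cells (ESCs; 2 libraries) were kept in 2i/LIF, which keeps them naive. Epiblast stem cells (EpiSCs; 2 libraries) are in the primed state and resemble the epiblast of an implanted embryo. The study described the cells as female, and its methods give a mixed genetic background for the fathers of the embryos, while the labels name only the inbred strain. It began ASC derivation with AFSC lines that carried a GOF-GFP or Stella-GFP reporter. Which line gave the ASC libraries is not stated in the sources used here. The tables hold no RNA measurement, so cell identity could not be checked against marker genes, and the reads carry no label of the parental allele, so maternal and paternal DNA could not be told apart. The libraries held from 63803799 to 74925271 CpG reads, a mean of 2.96 to 3.46 reads per listed CpG.

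An imprint is a methylation mark that is set in the germ line of 1 parent and kept on that parent's allele after fertilization. At Kcnq1ot1 and at Airn the mark is laid down in the oocyte, over a CpG island at the start of the RNA, and the RNA is made from the unmethylated paternal allele. In the embryo transcription of both noncoding RNAs is needed in cis to silence coding genes on the paternal chromosome. For Kcnq1ot1 these are Cdkn1c, an inhibitor of cyclin-dependent kinases that restrains growth, and genes around it. For Airn it is Igf2r, a receptor that carries the growth factor IGF2 to the lysosome for breakdown. Kcnq1 encodes a voltage-gated potassium channel. The promoters of Igf2r and Cdkn1c are known to gain methylation on the silent paternal allele only after implantation, a secondary mark. In a cell with an intact germline imprint about as many methylated as unmethylated reads are present at the RNA start, because 1 of the 2 alleles is methylated. The zinc finger protein ZFP57 protects many imprints during the loss of methylation after fertilization, and it binds the methylated hexamer TGCCGC.

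Kcnq1ot1 (ENSMUSG00000101609.2) runs from 143296549 down to 143203458 on chromosome 7 (GRCm38, GENCODE M21), and its start lies in intron 11 of the Kcnq1 transcript Kcnq1-201. It is 93.1 kb long, its start is 189.3 kb from that of Kcnq1 and 164.5 kb from that of Cdkn1c. Airn (ENSMUSG00000078247.4) runs from 12741311 to 12860136 on chromosome 17, is 118.8 kb long and starts in intron 2 of the Igf2r transcript Igf2r-201, 28.4 kb from the Igf2r start.

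Parts of the sequences at the antisense RNA starts are shown first. Most values further below are over other bounds, such as the longer start regions, windows or islands. The following stretches of 300 bases, read from the GRCm38.p6 reference along the strand of each RNA, are those within 1000 bp of the starts that hold the most copies of TGCCGC, counted on both strands. Capitals mark each copy, as TGCCGC or as its reverse complement GCGGCA. The Kcnq1ot1 stretch lies at chr7:143295669-143295968 (minus strand), from 581 to 880 bp after the start, and holds 21 CpG sites and 3 copies. The Airn stretch lies at chr17:12741725-12742024 (plus strand), from 414 to 713 bp after the start, and holds 29 CpG sites and 3 copies.
Kcnq1ot1: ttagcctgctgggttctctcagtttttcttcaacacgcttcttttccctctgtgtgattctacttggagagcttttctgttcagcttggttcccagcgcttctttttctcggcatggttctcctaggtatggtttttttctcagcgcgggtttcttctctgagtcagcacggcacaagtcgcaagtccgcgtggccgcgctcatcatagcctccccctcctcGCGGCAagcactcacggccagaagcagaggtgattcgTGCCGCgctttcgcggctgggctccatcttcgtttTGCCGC
Airn: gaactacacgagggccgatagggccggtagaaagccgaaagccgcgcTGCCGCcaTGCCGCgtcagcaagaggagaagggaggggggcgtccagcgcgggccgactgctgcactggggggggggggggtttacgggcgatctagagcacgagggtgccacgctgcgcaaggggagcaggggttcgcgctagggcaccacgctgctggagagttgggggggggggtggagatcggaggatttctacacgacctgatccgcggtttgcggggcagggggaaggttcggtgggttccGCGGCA

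In the Kcnq1ot1 stretch methylation was 32.4% and 40.1% in ASCs, where both EpiSC libraries were far higher (97.9% and 95.7%). No methylated observation was found in either ESC library, which at these depths allows levels of up to 2.94% and 2.0%. In the Airn stretch it was 3.45% and 44.7% in the ASC libraries, 88.2% and 67.2% in the EpiSC libraries and again 0 in both ESC libraries (up to 12% and 6.52%), but this stretch had only 25 to 76 observations per library. The 3 groups were apart at Kcnq1ot1, while the ASC libraries were far from each other at Airn.

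Over the whole start region TGCCGC occurred 3 times at Kcnq1ot1 and 5 times at Airn. Of all 34568 start regions 37.0% held at least 1 copy, 5.88% held at least 3 and 0.96% at least 5. Of the 13348 tested start regions with at least 60 CpG sites 14.2% held at least 3 and 2.4% at least 5. The start region of Kcnq1 held none, and those of Cdkn1c and Igf2r held 1 each. The start regions of the imprinted genes Mest, Peg3 and Plagl1, used for comparison, held more than either antisense RNA, with 12, 6 and 6 copies. A match of 6 letters is a description of the sequence and shows no bound protein.

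The CpG sites of the promoters differ in number as well. The Kcnq1ot1 promoter of RefSeq (GRCm38.p6, 250 bases before to 50 after the start) lies at chr7:143296498-143296797 (minus strand) and holds 9 CpG sites, and that of Igf2r lies at chr17:12769657-12769956 (minus strand) and holds 34. Capitals mark each CpG. RefSeq places both starts close to, but not at, those of GENCODE. They are shown side by side because the first was methylated in ASCs and the second was not. Of the 5 genes, 3 matched this table; the Airn promoter had 5 to 12 observations per library and is not shown, and Kcnq1 and Cdkn1c are named only.
Kcnq1ot1: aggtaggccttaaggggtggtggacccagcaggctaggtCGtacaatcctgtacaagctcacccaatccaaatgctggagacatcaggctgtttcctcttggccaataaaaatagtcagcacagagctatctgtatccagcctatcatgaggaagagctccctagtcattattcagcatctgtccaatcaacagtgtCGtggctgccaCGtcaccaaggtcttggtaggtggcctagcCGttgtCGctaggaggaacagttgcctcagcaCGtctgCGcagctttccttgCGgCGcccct
Igf2r: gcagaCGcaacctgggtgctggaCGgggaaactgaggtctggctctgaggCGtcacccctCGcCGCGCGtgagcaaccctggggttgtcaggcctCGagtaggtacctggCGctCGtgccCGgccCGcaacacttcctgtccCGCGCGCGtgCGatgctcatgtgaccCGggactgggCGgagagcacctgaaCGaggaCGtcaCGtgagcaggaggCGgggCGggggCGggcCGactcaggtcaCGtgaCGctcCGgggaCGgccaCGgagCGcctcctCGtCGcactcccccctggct

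These 300 bases of Kcnq1ot1 were methylated at 79.7% and 83.3% in the ASC libraries, at 0 in both ESC libraries (up to 7.14% and 5.08%) and at 98.4% and 97.9% in the EpiSC libraries. Those of Igf2r were methylated at 2.51% and 1.64% in ASCs, against 1.72% and 0.369% in ESCs and 54.9% and 55% in EpiSCs. The CpG-dense coding promoter was low in both ASC libraries where the promoter of the antisense RNA was high, which is the difference for which this pair was shown.

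The first question was whether the germline imprints at the antisense RNA starts were present in each cell type. Over the whole start regions they were methylated at intermediate levels in ASCs, close to unmethylated in ESCs, and above the intermediate level in EpiSCs, almost fully so at Kcnq1ot1. The start region of Kcnq1ot1 (chr7:143295549-143297549, 78 CpG sites, 377 to 520 observations per library) was methylated at 43.0% and 51.6% in the ASC libraries, against 0.744% and 0.385% for ESCs and 97.1% and 97.8% for EpiSCs. No 2 groups overlapped. ASCs were higher than ESCs by 46.7 percentage points (adjusted p = 1.14e-09) and lower than EpiSCs by 50.2 points (adjusted p = 1.11e-10), and EpiSCs were higher than ESCs by 96.9 points (adjusted p = 4.94e-14). These values and those below come from a quasi-binomial model of methylated and unmethylated observations with dispersions moderated by limma, two-sided, with Benjamini-Hochberg adjustment over all regions of the same kind. To be called, a region needed an adjusted p under 0.05 together with a gap of 20 points or more between group means.

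The start region of Airn (chr17:12740311-12742311, 75 CpG sites) had fewer observations, 180 to 304 per library. Its level was 43.3% and 50.8% in the ASC libraries, against 1.51% and 0.980% for ESCs and 73.3% and 70.4% for EpiSCs. The order of the groups was that of Kcnq1ot1, again without overlap, with a smaller step from ASCs to EpiSCs. The differences were 45.8 points between ASCs and ESCs (adjusted p = 3.42e-08), 70.6 points between EpiSCs and ESCs (adjusted p = 1.42e-11) and -24.8 points between ASCs and EpiSCs (adjusted p = 2.91e-05). The last was -12.04 points, under the 20 points of a call, with unweighted means over CpG sites with at least 5 reads. Coverage was higher in EpiSCs than in the other groups here: relative to the autosomal mean it was 0.698 and 0.955 in ASCs, against 0.726 and 0.755 in ESCs and 1.17 and 1.31 in EpiSCs. The part of this in the levels was not tested. Within 500 kb of the Airn start the relative coverage lay between 1.03 and 1.15 in the 6 libraries.

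Calls of this kind were common, and the 3 contrasts share their libraries. Of the 26234 start regions tested, 36.5% were called with ASCs above ESCs, 51.6% with EpiSCs above ESCs, and 34.2% with ASCs below EpiSCs. The median differences over all start regions were 5.85, 23.0 and -11.6 points. That both antisense RNA starts were called in each contrast is therefore not in itself particular to them. In the order of these contrasts, 16958, 23775 and 20389 start regions had an unadjusted p under 0.05 in the quasi-binomial model, in either direction. The share of start regions without overlap between groups was not counted, so the absence of overlap is not read as particular to the antisense RNAs. The EpiSC mean of Kcnq1ot1 (97.4% ± 0.507, SD, n = 2) was higher than that of 99.3% of the start regions, and that of Airn (71.8% ± 2.03, SD, n = 2) was higher than 61.3%.

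**Figure D1:**
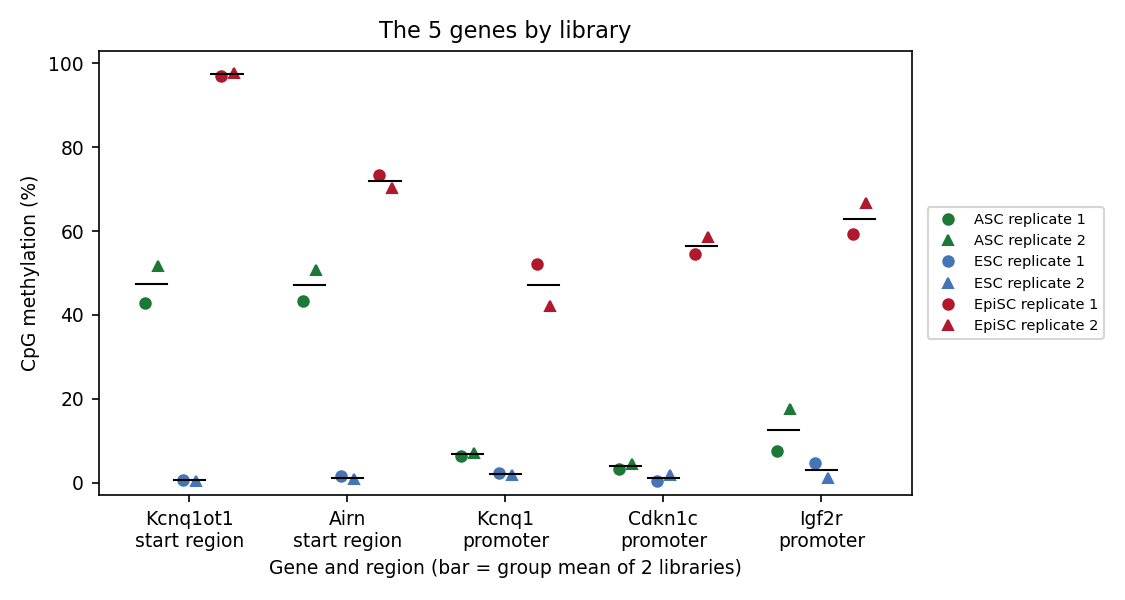
Methylation (%, y axis) of the start regions of Kcnq1ot1 and Airn and of the promoters of Kcnq1, Cdkn1c and Igf2r (x axis) in each library; circles are replicate 1, triangles replicate 2, and bars are group means of 2 libraries. The antisense RNA starts lie between 43.0% and 51.6% in ASCs, the coding promoters stay between 3.33% and 17.5% in ASCs, and all 5 are highest in EpiSCs.

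The second question was whether Kcnq1ot1 and Airn differed from each other. Within a library, the Kcnq1ot1 level minus the Airn level was -0.376 and 0.793 points in ASCs, against -0.763 and -0.596 in ESCs and 23.8 and 27.4 in EpiSCs. With these bounds the antisense RNAs were within 1 point of each other in the ASC and ESC libraries and apart in both EpiSC libraries. In ESCs both starts were at 1.51% or less, so closeness there follows from the low levels and shows no likeness. The closeness in ASCs depended on the bounds and the averaging: ASCs minus ESCs was 61.6 points at Kcnq1ot1 and 42.5 at Airn with 500 bp on each side, and 46.8 and 56.2 points with unweighted means over CpG sites with at least 5 reads. The difference varied between the groups with a higher F statistic than under any other of the 15 assignments (p = 0.0667 by an exact permutation test over the 6 libraries, which cannot give less). With regions of 500 bp on each side the same exact test gave p = 0.133, and with site means p = 0.2.

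Start regions of Mest, Peg3 and Plagl1, other genes whose imprints are set in the oocyte, served as comparators. Mest was at 54.1% and 47.8% in ASCs and at 50.9% and 49.2% in EpiSCs. Peg3 was at 28.9% and 39.5% in ASCs and at 43.8% and 42.3% in EpiSCs. Plagl1 was at 35.2% and 45.8% in ASCs and at 56.4% and 45.3% in EpiSCs. All 3 were under 1.3% in both ESC libraries, and none was called between ASCs and EpiSCs (differences of 0.870, -8.90 and -10.4 points). Peg3 and Plagl1 passed the p threshold with ASCs lower (adjusted p = 0.0198 and 0.0360) and missed the 20 points. Kcnq1ot1 minus the mean of the 3 was 5.41 ± 2.64 points in ASCs, against -0.0758 ± 0.0139 in ESCs and 49.4 ± 3.89 in EpiSCs (SD, n = 2 each; p = 0.0667 by the same exact test). The same difference for Airn was 5.20 ± 1.81, 0.604 ± 0.104 and 23.8 ± 1.35 points (p = 0.0667 by the same exact test, and 0.2 with regions of 500 bp on each side). In EpiSCs both antisense RNA starts lay above the comparators, Kcnq1ot1 further than Airn.

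**Figure D2:**
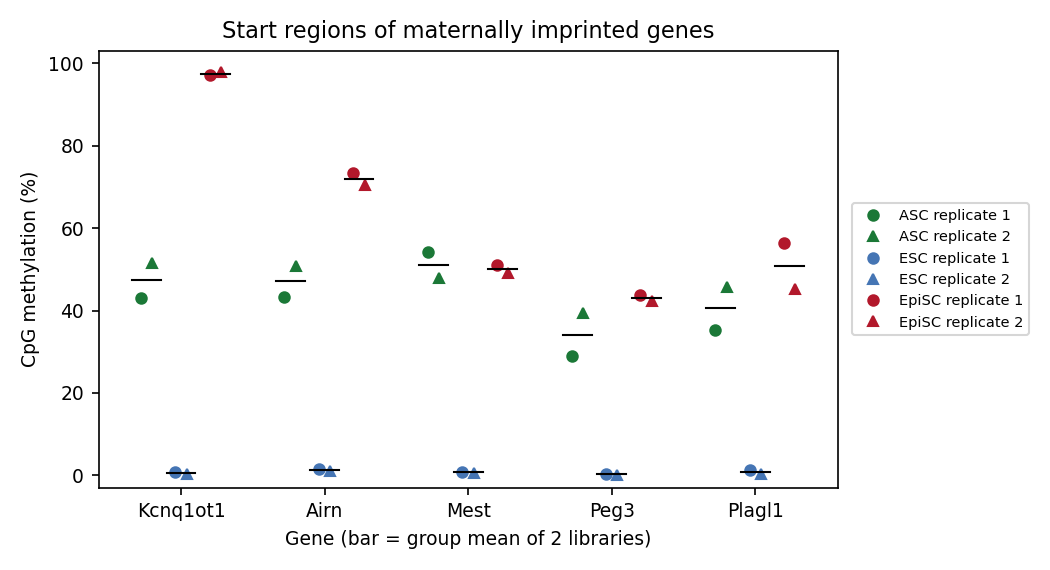
Methylation (%, y axis) of the start regions of Kcnq1ot1, Airn, Mest, Peg3 and Plagl1 (x axis) in each library; symbols as in the plot of the 5 genes, bars are group means of 2 libraries. In EpiSCs the comparators lie between 42.3% and 56.4%, Airn at 70.4% and 73.3%, and Kcnq1ot1 at 97.1% and 97.8%.

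To place these levels along the RNAs, windows of 500 bp were examined up to 10 kb on each side of the starts. Of 41 windows at Kcnq1ot1, 17 had at least 10 observations in every library and 5 had the 40 needed for a test. Of 41 windows at Airn, 24 and 4 did. All 5 tested windows at Kcnq1ot1 and all 4 at Airn were called with ASCs as well as EpiSCs above ESCs, where 68.4% and 81.2% of the 173282 windows tested in the genome were. ASCs were below EpiSCs in 3 of 5 at Kcnq1ot1 and 2 of 4 at Airn, against 51.8% of all windows.

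At Kcnq1ot1 the called windows formed a run of 2000 bp from 143295001 to 143297000, from just before the start into the RNA, with a further window from 143302001 to 143302500. Every tested window was called, so the ends of this run mark where enough observations were present and not where methylation changes. The window that holds the start (143296501 to 143297000) was at 76.7% and 78.7% in ASCs, at 0 in both ESC libraries (up to 6.25% and 4.62%), and at 97.2% and 98.2% in EpiSCs. The window centred 798 bp into the RNA was at 25.8% and 38.4% in ASCs, against 0.552% and 0.370% in ESCs and 98.1% and 96.6% in EpiSCs. The gap between ASCs and EpiSCs was -65.2 points in this window (adjusted p = 3.28e-06), which was called, and -20.0 points in the window with the start (adjusted p = 0.000741), where the unrounded difference was just short of the 20 points needed. Both ASC libraries were thus lower in the window at 798 bp than in the window with the start, while EpiSCs stayed between 96.6% and 98.2%. The window with the start had 4.8 to 7.5 reads per CpG in the 6 libraries, and the one at 798 bp 4.05 to 7.11. Differences between windows were not tested.

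The separate window at 143302001, far upstream, was at 87.0% and 77.5% in ASCs, against 32.8% and 28.8% in ESCs and 96.7% and 92.9% in EpiSCs, so ESCs were not empty there. The next windows into the RNA filled in this profile. The window centred at 298 bp was at 47.0% and 57.9% in ASCs, and the one at 1298 bp at 69.6% and 49.0%. In steps of 250 bp from the start, a division made after the values were seen, ASC replicate 1 was at 51.4%, 33.3%, 55.9% and 19.6%, and replicate 2 at 71.4%, 57.4%, 18.9% and 41.4%. The replicates did not share the position of their lowest step. EpiSCs stayed between 96.0% and 100% in all 4 steps.

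The Airn windows formed a run of 2000 bp as well, from 12741001 to 12743000, whose ends likewise mark only the windows that could be tested. The window that holds the start (12741001 to 12741500) was at 66.7% and 62.2% in ASCs, at 2.44% and 0 (up to 6.0%) in ESCs, and at 89.5% and 74.4% in EpiSCs. The next windows separated the ASC libraries from each other. The window centred at 439 bp was at 2.82% in ASC replicate 1 and 45.6% in replicate 2, the one at 939 bp at 68.1% and 41.8%, and the one at 1439 bp at 6.56% and 45.3%. The ASC libraries thus differed strongly, in either direction, from 1 window to the next. Their closer levels over the start region sum over such differences. The start region ends at 12742311, within the window at 939 bp, so the window at 1439 bp is not part of that sum.

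Depth differed between these windows: the one at 439 bp had 1.45 to 3.66 reads per CpG in the 6 libraries. The one at 939 bp had 1.89 to 5.66, with 1.89 and 2.39 in the ASC libraries, and the one at 1439 bp had 4.54 to 6.92. A read covers several CpG sites, so few molecules were read in each window. The part of depth in the gaps between the ASC libraries was not tested. In the window at 439 bp ASCs were higher than ESCs by 24.2 points (adjusted p = 0.00701) and lower than EpiSCs by 41.8 points (adjusted p = 0.0152). The window at 1439 bp gave 25.9 points (adjusted p = 0.00385) and -54.1 points (adjusted p = 0.00204). The windows at the start and at 939 bp fell short of the 20 points between ASCs and EpiSCs (-17.5 points, adjusted p = 0.0498, and -13.4 points, adjusted p = 0.169). The 2 calls between ASCs and EpiSCs at Airn were both lost without EpiSC replicate 1, and 1 call was made without EpiSC replicate 2 or without either ESC library. Of the 4 calls between ASCs and ESCs, 2 remained when any library other than ASC replicate 1 was left out.

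**Figure D3:**
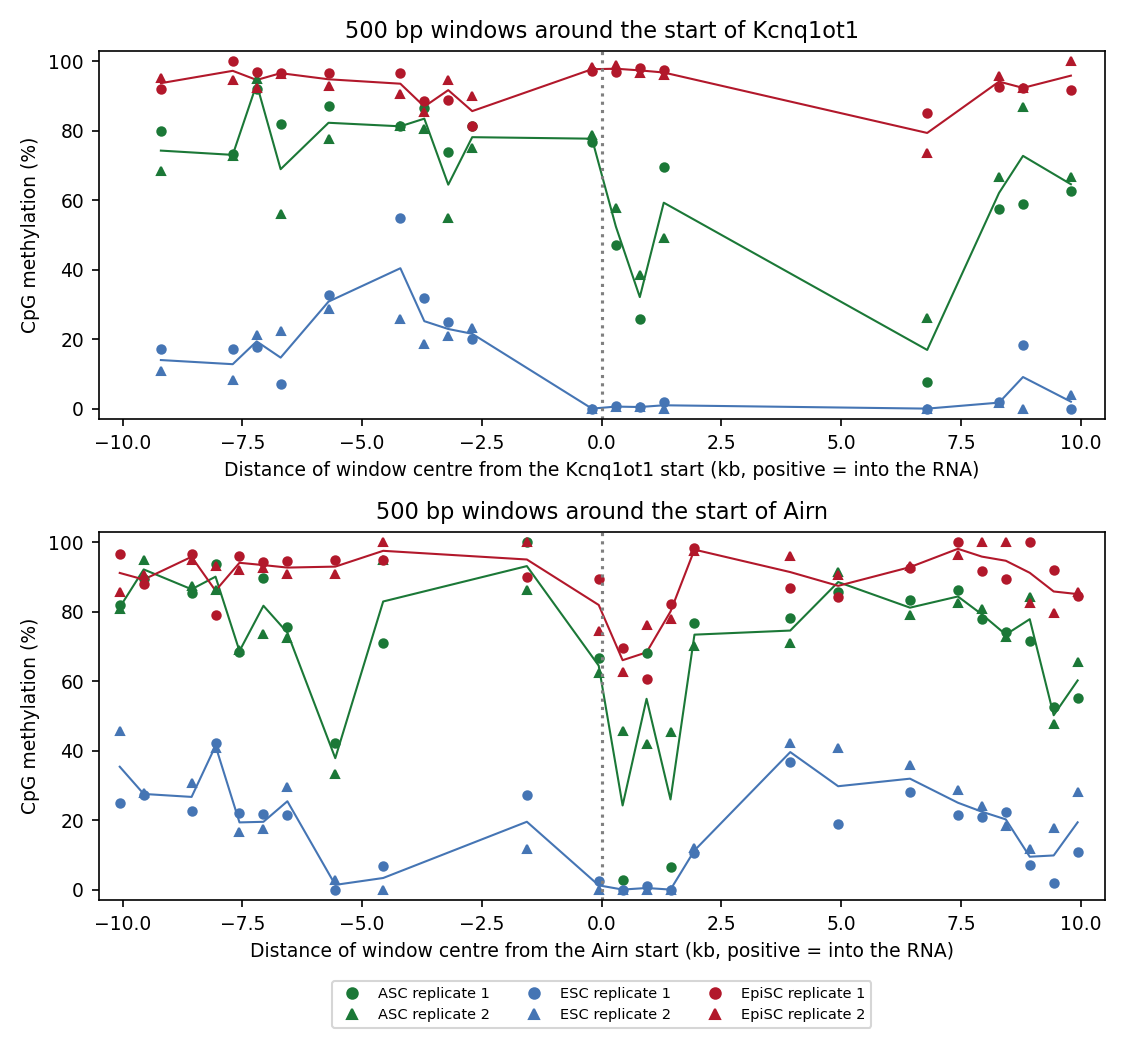
Methylation (%, y axis) of 500 bp windows with at least 10 observations in every library against the distance of the window centre from the start in kb (x axis; positive is into the RNA), for Kcnq1ot1 above and Airn below; lines join group means of 2 libraries and symbols are libraries. ESCs drop to near 0 around both starts, EpiSCs lie between 96.0% and 98.9% in the 4 neighbouring windows at the Kcnq1ot1 start but dip to between 60.5% and 76.1% in the Airn windows centred at 439 and 939 bp, and the ASC libraries part at Airn.

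Single CpG sites were examined with the reads of both libraries of a group summed, at sites with at least 5 reads. At Kcnq1ot1, 68 of 76 sites were between 20% and 80% methylated in ASCs, 5 were above and 3 below. The ASC libraries parted in places, as at 55.9% and 18.9% from 500 to 749 bp, so a summed site need not be intermediate in either library. In ESCs all 77 sites were below 20%, the highest at 7.69%. In EpiSCs 73 of 74 sites were above 80%, and the lowest was at 72.7%. The EpiSC level was therefore high at single sites throughout the region and did not come from a mixture of high and low sites.

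At Airn fewer sites reached 5 reads. In ASCs 34 of 42 sites were between 20% and 80%, with 4 above and 4 below. As the ASC libraries lay far apart in the windows here, a summed site between these bounds need not be intermediate in either library. In ESCs 42 of 43 were below 20%. In EpiSCs 34 of 48 sites were between 20% and 80% and 14 were above, with a median site of 70.7% and a lowest of 41.7%. The Airn level in EpiSCs was thus intermediate to high at single sites and not the sum of full and empty ones, at a median of 8 reads per site.

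**Figure D4:**
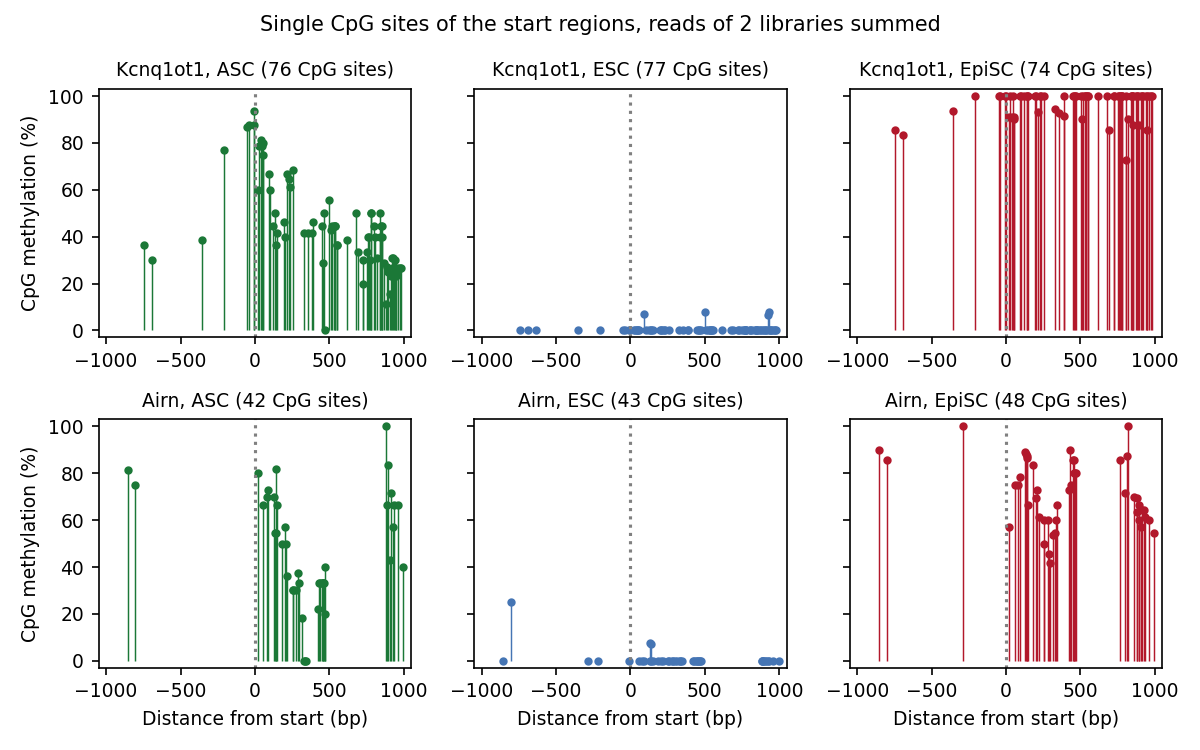
Methylation (%, y axis) of each CpG site with at least 5 summed reads in the 2 libraries of a group, against its distance from the start in bp (x axis), for Kcnq1ot1 (top row) and Airn (bottom row) in ASCs, ESCs and EpiSCs. Kcnq1ot1 has 73 of 74 EpiSC sites above 80%, while Airn has 34 of 48 between 20% and 80%.

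The flanks, from 1 to 10 kb on each side, were compared with the starts. The flank into the RNA still holds the end of a CpG island, which reaches 1532 bp at Kcnq1ot1 and 1361 bp at Airn. It is therefore not wholly outside the imprint, and the part of the island in the differences below was not tested. From 1 to 10 kb before the Kcnq1ot1 start, methylation was 78.5% and 72.7% in ASCs, against 27.2% and 18.8% in ESCs and 91.9% and 92.7% in EpiSCs. From 1 to 10 kb into the RNA it was 48.9% and 50.4%, 2.96% and 1.66%, and 94.5% and 94.6%. Beyond 10 kb the RNA's own template was at 68.0% and 68.8% in ASCs, against 17.4% and 18.6% in ESCs and 92.0% and 91.5% in EpiSCs. The side of the flank that the RNA runs into was lower than the other side in both ASC and both ESC libraries.

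The Kcnq1ot1 start minus its flanks on both sides was -20.1 and -8.74 points in ASCs, against -13.3 and -10.3 in ESCs and 4.03 and 4.14 in EpiSCs. It was below these flanks in the ASC and ESC libraries and slightly above them in both EpiSC libraries, but the grouping did not have the largest F statistic (exact permutation test, p = 0.2). The Airn start minus its flanks was -28.0 and -18.98 points in ASCs, against -16.2 and -19.7 in ESCs and -13.3 and -18.7 in EpiSCs (exact permutation test, p = 0.4). Airn thus lay below its flanks in all 6 libraries, EpiSCs included.

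CpG islands were marked from the sequence, as stretches of at least 500 bp with at least 55% G and C and a ratio of observed to expected CpG of at least 0.65. The Airn island (12741283 to 12742672, 94 CpG sites), which spans the start, was at 37.9% and 46.6% in ASCs, against 1.14% and 0 (up to 0.958%) in ESCs and 67.9% and 69.9% in EpiSCs. Kcnq1ot1 had 2 islands, the one over its start (143295975 to 143296684, 38 CpG sites) at 55.3% and 63.8% in ASCs, and the other, further into the RNA (143295017 to 143295928, 60 CpG sites), at 44.6% and 43.6%. Both were at 96.2% or more in EpiSCs and at 1.08% or less in ESCs. The islands gave the same order of groups as the start regions.

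The third question was what the 3 coding genes carried at their own promoters (1000 bp before to 100 bp after the start). In contrast to the antisense RNA starts, the promoters of Kcnq1, Cdkn1c and Igf2r stayed low in ASCs and were between 42.3% and 66.7% in EpiSCs. The bounds differ from those of the start regions. In the promoter bounds Kcnq1ot1 was at 68.9% and 75.7% in ASCs and Airn at 74.4% and 66.7%, Airn with 35 to 49 observations and not tested. None of the 3 coding promoters was called between ASCs and ESCs, where 27.0% of 19902 promoters were. At all 3, EpiSCs were called above ESCs (as at 45.7% of all promoters), and ASCs below EpiSCs (as at 30.3%).

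The Cdkn1c promoter (83 CpG sites, 154 to 310 observations) was at 3.33% and 4.55% in ASCs, against 0.408% and 1.81% in ESCs and 54.5% and 58.6% in EpiSCs. ASCs and ESCs differed by 2.83 points (adjusted p = 0.0821), and EpiSCs were above ESCs by 55.4 points (adjusted p = 4.17e-08) and above ASCs by 52.6 points (adjusted p = 4.04e-07). The island over the start and body of Cdkn1c is 2706 bp long with 284 CpG sites. It was at 3.03% and 2.54% in ASCs, against 1.003% and 2.59% in ESCs and 67.5% and 70.9% in EpiSCs. A second island, upstream of the start (143464773 to 143465553), was at 43.6% and 51.6% in EpiSCs and under 2.4% in the other 4 libraries.

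The Igf2r promoter (60 CpG sites, 231 to 408 observations) was at 7.58% and 17.5% in ASCs, against 4.64% and 1.23% in ESCs and 59.2% and 66.7% in EpiSCs. The ASC libraries were both above the ESC libraries, by 9.60 points on average (adjusted p = 0.00979), which is under the 20 points of a call. This small difference depended on single libraries and on the bounds: it was 4.65 points without ASC replicate 2 (adjusted p = 0.136) and 14.5 without ASC replicate 1 (adjusted p = 0.0103), its adjusted p was 0.183 without ESC replicate 2, and with 500 bp on each side of the start it was 1.21 points (adjusted p = 0.159). With unweighted means over CpG sites with at least 5 reads, which carry no test, it was 19.02 points. EpiSCs were above ESCs by 60.02 points (adjusted p = 2.23e-07) and above ASCs by 50.4 points (adjusted p = 6.56e-06). The Igf2r island (115 CpG sites) was at 1.72% and 1.76% in ASCs, against 0.954% and 0.437% in ESCs and 41.6% ± 2.29 in EpiSCs (SD, n = 2). Within the island, the ASC libraries were close to each other and near the ESC level.

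The Kcnq1 promoter (52 CpG sites, 237 to 374 observations) was at 6.46% and 7.17% in ASCs, against 2.43% and 1.87% in ESCs and 52.3% and 42.3% in EpiSCs. The difference between ASCs and ESCs was 4.67 points (adjusted p = 0.0242), below the 20 points of a call. Its adjusted p was 0.0852 to 0.181 without any 1 ASC or ESC library, and with 500 bp on each side of the start it was 1.98 points (adjusted p = 0.108). EpiSCs exceeded ESCs by 45.1 points (adjusted p = 9.59e-08) and ASCs by 40.4 points (adjusted p = 1.78e-06). With the same narrower bounds EpiSC minus ESC was 23.5 points and ASC minus EpiSC -21.5 points, both still called. Its island (83 CpG sites) was at only 14.9% and 14.1% in EpiSCs, below the level of the promoter window, which reaches further upstream. The 3 coding genes shared low ASC and ESC levels, and of their islands that of Cdkn1c over its start was highest in EpiSCs and that of Kcnq1 lowest.

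Other genes of the domains were taken from fixed lists. The Kcnq1 domain held 11 further genes, of which 9 promoters could be tested (not Slc22a18 and Trpm5). ASCs were called above ESCs at 3 of them (Osbpl5, Tspan32 and Th), EpiSCs above ESCs at 4 (these and Tssc4), and EpiSCs above ASCs at the same 4 genes, beside 27.0%, 45.7% and 30.3% of all promoters called in these directions. Their median differences were 0.894, 15.4 and -7.37 points, beside 4.47, 16.1 and -9.11 points over all promoters.

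Th, which encodes tyrosine hydroxylase, was at 63.3% and 61.4% in ASCs, against 12.3% and 16.7% in ESCs and 90.0% and 95.2% in EpiSCs. Tspan32 was at 59.5% and 53.7%, 9.52% and 7.5%, and 97.6% and 97.7%. Osbpl5 was at 51.1% and 42.5%, 18.97% and 26.2%, and 90.2% and 91.8%. Its difference between ASCs and ESCs, 24.2 points (adjusted p = 0.0175), was the smallest of those called in this list. The list held fewer such calls without some single libraries. Calls like these were common among promoters, as the percentages above show. Phlda2 and Ascl2 act in the placenta, where Phlda2 limits growth and Ascl2 is needed for the trophoblast. Phlda2 stayed between 0.549% and 6.21% in the 6 libraries. Ascl2 was at 13.1% and 14.1% in ASCs, against 2.90% and 1.52% in ESCs and 18.3% and 16.9% in EpiSCs. Its ASCs (11.4 points, adjusted p = 0.00117) and EpiSCs (15.4 points, adjusted p = 5.53e-05) were above ESCs but missed the 20 points of a call. Tssc4 was at 2.31% and 0.538% in ASCs and 27.1% and 32.2% in EpiSCs. The remaining Dhcr7, Nap1l4 and Cd81 did not exceed 11.5% in any library.

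Of the Igf2r domain 8 further genes were examined, of which 7 promoters could be tested (not Mas1). ASCs were called above ESCs at Slc22a2, Slc22a3 and Plg. EpiSCs were called above ESCs at these 3, Pnldc1 and Acat2, and above ASCs at Slc22a3, Pnldc1 and Acat2. These are 3, 5 and 3 of 7 promoters, beside the same shares of all promoters. The median differences were 15.6, 61.1 and -17.03 points, beside 4.47, 16.1 and -9.11 over all promoters. Slc22a2 and Slc22a3 are organic cation transporters that Airn silences in the placenta. Slc22a3 was at 40.4% and 43.1% in ASCs, against 6.36% and 4.65% in ESCs and 80.2% and 87.2% in EpiSCs, and Slc22a2 was at 74.6% and 78.9%, 22.0% and 24.1%, and 87.7% and 86.1%. Pnldc1 had the widest gap between ASCs and EpiSCs of the list, at 21.9% and 23.8% against 96.4% and 95.5% (-73.1 points, adjusted p = 6.71e-07). Acat2, an enzyme of acetyl-CoA metabolism, was at 3.66% and 9.21% in ASCs and at 34.1% and 37.1% in EpiSCs. Mrpl18 and Tcp1, which are transcribed from neighbouring starts, did not exceed 4.12% in any library.

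**Figure D5:**
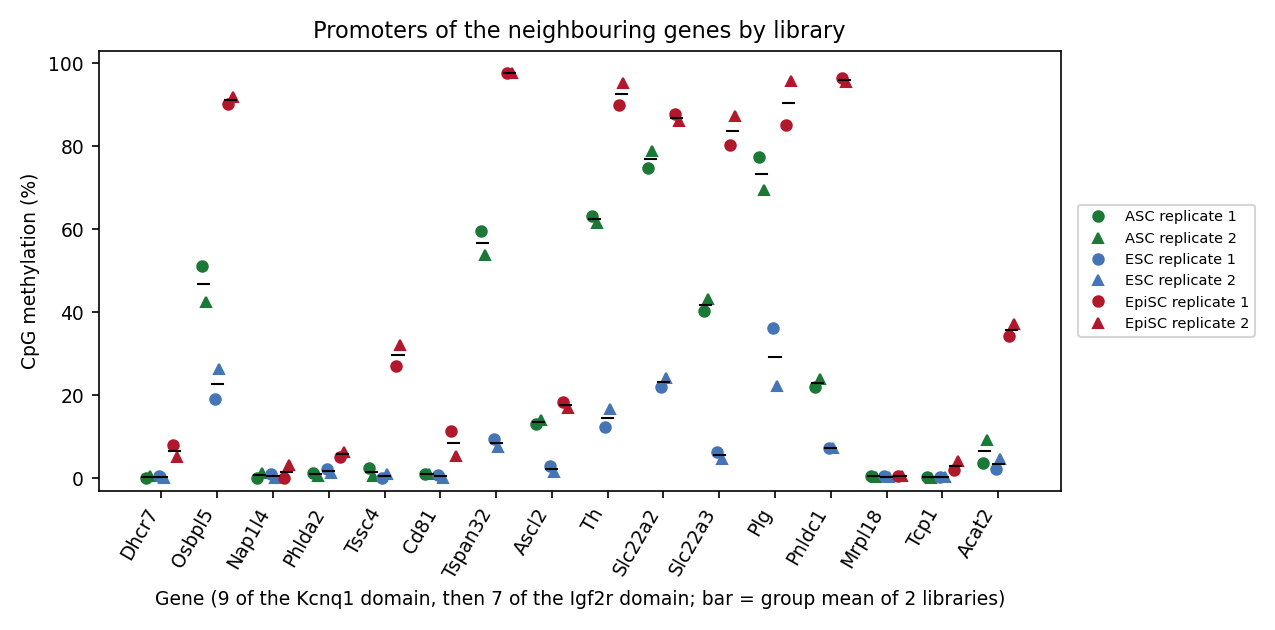
Methylation (%, y axis) of the promoters of 9 tested genes of the Kcnq1 domain and 7 of the Igf2r domain (x axis) in each library; symbols as in the plot of the 5 genes, bars are group means of 2 libraries. Dhcr7, Nap1l4, Phlda2, Mrpl18 and Tcp1 stay under 8% throughout, while Pnldc1 reaches 96.4% and Tspan32 97.7% in EpiSCs.

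The start regions most like each antisense RNA were found by the root mean square difference in level over the 6 libraries, among 26233 other regions. Nearest to Kcnq1ot1 were Cd180 (3.63 points), Hal (4.07), Gm28747 (4.08), C78283 (4.15) and Pmis2 (4.30). Nearest to Airn were Gm11872 (3.25 points), C1qtnf1 (3.33), C330022C24Rik (3.88), Gm12069 (4.10) and 2810433D01Rik (4.28). These regions hold few CpG sites, from 20 to 41, against 78 and 75 at the antisense RNAs. The 6 levels alone therefore did not set the imprints apart from CpG-poor starts, and CpG density is taken up among the other observations.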

How the data were processed

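The sample labels gave the groups and the replicate numbers. Adaptors were added after bisulfite conversion (PBAT). According to the study's methods and the submitters' processing notes, the authors trimmed reads with Trim Galore, aligned them to GRCm38 with Bismark 0.16.3, removed duplicates and called CpG sites with MethPipe (version not given in the sources used here). Per CpG, the deposited tables hold the methylation level as a fraction and the coverage as a raw read count. Fraction times coverage lay within 0.000115 of a whole number, so read counts were recovered. Coordinates are GRCm38, counted from 1.

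Reads were summed over 500 bp windows, start regions and promoters of 1 start per gene (GENCODE M21), with at least 40 observations in every library. The quasi-binomial model was fitted to all 6 libraries, with dispersions moderated by squeezeVar of limma 3.58.1 in R 4.3.3. On simulated counts for 26234 start regions, changes of 25 and 40 points between ASCs and ESCs were recovered in 84 and 100 of 100 regions each. On 173282 simulated windows the same changes were recovered in 32 and 92 of 100. The simulated dispersion was set below the mean of the data, which was 1.90 for start regions and 1.51 for windows. Only regions of middle level were changed, so recovery in the data may be lower. Differences within a library were compared by an exact permutation test. The libraries of a group held different values and were counted as separate replicates. Their mean chi-square per window was 1.45 to 1.65, which includes the clustering of CpG sites within reads and does not show spread beyond sampling. Whether they came from separate cultures is not stated beyond the words biological replicates. The p-values rest on the spread between these libraries, moderated towards that of all regions of the same kind. Limma on M values gave larger adjusted p-values, 0.000492 for ASCs minus ESCs at the Kcnq1ot1 start region and 0.0120 for ASCs minus EpiSCs at that of Airn. Upper limits beside a level of 0 are 3 observations of the total and cover counting error only; reads span several CpG sites, so observations are not independent.

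The 5 genes, the comparators and the lists of neighbours were chosen with earlier results of these data known. Of the listed genes, 1 is not reported here and enters no list count. Named were the 5 genes, windows holding a start or called, list genes called in any contrast, the 5 regions most alike, and the comparators; other genes named with values were chosen after their values were seen. Alternatives were other observation minimums, limma on M values, edgeR 4.0.16, Fisher's exact test, other minimum differences, a replicate term, other region bounds, unweighted site means and leaving out each library.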

Additional observations from a re-analysis of the deposited data

How the results depend on the processing

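Under the alternatives tried, no difference of the 5 genes listed here changed sign. The start-region calls of Kcnq1ot1 and Airn held under each alternative with a test except that, with 40 points required, the -24.8 points between ASCs and EpiSCs at Airn were not called. Without 1 library at a time these differences ranged, for ASCs minus ESCs, EpiSCs minus ESCs and ASCs minus EpiSCs, from 42.4 to 51.0, 96.5 to 97.2 and -54.5 to -45.8 points at Kcnq1ot1, and from 42.1 to 49.6, 69.2 to 72.0 and -28.5 to -21.0 at Airn, all called. In the same order, called windows ranged from 5 to 5, 5 to 5 and 3 to 4 at Kcnq1ot1 and from 2 to 4, 4 to 4 and 0 to 2 at Airn. With at least 20 observations 8, 8 and 4 windows were called at Kcnq1ot1 and 13, 13 and 6 at Airn, and with at least 100 observations 2 and 2 in the contrasts with ESCs at Kcnq1ot1 and 0 at Airn, where none could be tested. A grid shifted by 250 bp gave 3 and 3 at Kcnq1ot1 in the contrasts with ESCs and 4 at Airn between ASCs and EpiSCs. With no minimum difference 5 windows were called between ASCs and EpiSCs at Kcnq1ot1, and with 40 points 2 between ASCs and ESCs at Airn. The cause of these changes was not tested, beyond the fewer or more windows tested.

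For the coding promoters, with no minimum difference the 4.67 points at Kcnq1 and 9.60 points at Igf2r between ASCs and ESCs were called. With a replicate block the adjusted p of the Igf2r difference was 0.0823. In the lists 0, 1 and 1 genes of the Kcnq1 domain and 0, 0 and 0 of the Igf2r domain were called with at least 100 observations, where 5 and 2 could be tested. With no minimum difference 8 (EpiSCs minus ESCs) and 7 (ASCs minus EpiSCs) were called in the Kcnq1 domain and 5 (ASCs minus EpiSCs) in the Igf2r domain, and with 40 points 2 (ASCs minus EpiSCs) in the Kcnq1 domain. Within 500 bp of the start 2 and 2 were called in the Kcnq1 domain in the contrasts with EpiSCs, and in the Igf2r domain 1 between ASCs and ESCs and 3 between EpiSCs and ESCs. Unweighted means over CpG sites with at least 5 reads rested on 10 to 33 sites per library at Airn and 1 to 26 at the Cdkn1c promoter. They carry no test. They gave 56.2, 68.2 and -12.04 points at the Airn start for the 3 contrasts, the last under the 20 points of a call, and between ASCs and ESCs 3.75 points at Kcnq1, 0.226 at Cdkn1c and 19.02 at Igf2r, where ASCs minus EpiSCs was -39.1. The group means of Kcnq1ot1 minus Airn spanned 37.5 points on that scale and 26.3 as reported. The exact permutation p of that difference was 0.2 with site means and 0.133 with 500 bp on each side, and that of Airn minus the comparators 0.333 and 0.2, so neither grouping stayed the most extreme of the 15 assignments. For Kcnq1ot1 minus the comparators the exact p remained 0.0667 in both.

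No pairing by replicate number was seen: the correlation across windows of replicate 1 minus replicate 2 was -0.00165 for ASCs with ESCs, -0.00437 for ASCs with EpiSCs and -0.00105 for ESCs with EpiSCs. Such small correlations cannot exclude pairs, because spread between replicates beyond sampling was not shown. With a replicate block 2 windows at Airn were called between ASCs and ESCs and 1 between ASCs and EpiSCs, and no other call listed here changed.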

Other observations

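CpG density set the antisense RNA starts apart from most start regions of like level. Of 26234 start regions tested, 17759 were under 10% methylated in ESCs, and 804 of these were between 35% and 65% in ASCs. Among the 13348 regions with at least 60 CpG sites, 13196 were under 10% in ESCs and only 18 of them were between 35% and 65% in ASCs, Kcnq1ot1 and Airn included. The imprinted comparator Peg3 (92 CpG sites, mean of 0.235% in ESCs) is not among the 18, because its ASC mean of 34.2% lies just under the lower bound. The bounds were set with results of these data known, and the counts are a description.

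Of these 18 CpG-dense regions, 9 were above 80% in EpiSCs, as Kcnq1ot1 was, and 5 were between 35% and 65%, as the imprinted Mest (50.1%) and Plagl1 (50.9%) were. The regions of Gm15179 and Speg, both among the 9, overlap for most of their length, as do those of Ferd3l and Gm40383, both among the 5, so these pairs are not separate regions. Under 2% in ESCs were 5 of the 18: Kcnq1ot1, Airn, Mest, Plagl1 and Gm36079, a gene that was at 56.6% in ASCs, against 1.70% in ESCs and 67.2% in EpiSCs. The most alike CpG-dense region was Tex12 for Kcnq1ot1 (root mean square difference of 5.84 points over the 6 libraries; 43.9% in ASCs, against 7.62% in ESCs and 95.8% in EpiSCs). For Airn it was Gm36079, at 6.93 points. Tex12 encodes a protein of the meiotic synaptonemal complex. Nothing about shared control follows from these distances.

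The CpG sites inside the TGCCGC copies were read few times. At Kcnq1ot1 they were at 16.7% and 47.1% in the ASC libraries, over 12 and 17 observations, and at Airn at 50% and 52.9%, also over 12 and 17. The other CpG sites of the start regions were at 43.7% and 51.8% at Kcnq1ot1 and at 42.9% and 50.7% at Airn. A difference between motif sites and other sites was not tested.

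The gene bodies of Kcnq1 and Igf2r, more than 10 kb from their own starts, were at 67.3% and 68.0% and at 75.03% and 76.7% in ASCs. In ESCs they were at 18.3% and 17.6% and at 27.9% and 28.7%, and in EpiSCs at 90.6% and 89.9% and at 90.2% and 90.9%. The body of Igf2r was above that of Kcnq1 in all ASC and ESC libraries and within 1 point of it in EpiSCs. These bodies include the starts and CpG islands of Kcnq1ot1 and Airn. The part of the imprints in the levels of the bodies, and in the closeness in EpiSCs, was not tested.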
